A study of Mus musculus with 16 samples.

Results

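The 8 genes Ccr2, Ccr6, Cxcr3, Cxcr4, Cxcr5, Cx3cr1, S1pr1 and Gpr183 encode receptors that guide dendritic cells (DCs) into and within the spleen. They were chosen by name, as chemokine and positioning receptors, and make up 8 of the 17128 genes listed for plasmacytoid DCs (pDCs) and 8 of the 17721 listed for conventional DCs (cDCs). Their transcripts were measured by RNA-seq in 16 libraries of sorted splenic DCs. The control mice were Trim33 fl/fl animals (WT), and the conditional knockout mice were Trim33 fl/fl Itgax-Cre animals (cKO). Both carried the floxed Trim33 alleles on the C57BL/6 strain and were 6 to 8 weeks old, and only cKO mice carried Cre. Cre was driven by Itgax, the gene of CD11c, so Trim33 was to be deleted in cells that had already turned on CD11c and not in their earlier progenitors. After depletion of other lineages, CD11c+ cells were sorted by SiglecH as pDCs, and those without SiglecH that carried MHC II were sorted as cDC1s (CD24+ and CD172a-) or cDC2s (CD172a+ and CD24-). Per genotype there were 3 libraries of pDCs, 2 of cDC1s and 3 of cDC2s. Each library pooled the cells of several mice, with more mice in a cKO pool than in a WT pool.

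Chemokine receptors are G protein-coupled receptors through which a leukocyte climbs a gradient of its ligand. CCR2, the receptor of CCL2, releases monocytes and DC precursors from bone marrow, and CX3CR1, the receptor of the membrane-bound chemokine CX3CL1, marks monocytes, macrophages and some DCs. CCR6 binds CCL20, CXCR3 binds the interferon-induced chemokines CXCL9 and CXCL10, CXCR4 holds cells near CXCL12, and CXCR5 draws cells to CXCL13 in B cell follicles. GPR183 (EBI2) follows oxysterols that CH25H and CYP7B1 make and that HSD3B7 degrades, and it places cDC2s in the bridging channels of the spleen. S1PR1 carries cells out of tissue toward sphingosine-1-phosphate (S1P) in blood, and is removed from the surface by CD69.

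The promoters of the 3 receptors with the largest fold changes among the 6 that were tested are shown, since Ccr2 and Cx3cr1 rose together in cDCs while Ccr6 fell in pDCs. Each is the 250 bases before a RefSeq transcript start on GRCm38.p6, written on the strand of the gene. Capitals mark the letters GAGGAA, the core of sites bound by PU.1, a DC transcription factor that the study examined together with TRIM33, or their reverse complement TTCCTC, and both strands were searched. The Ccr2 window starts inside the annotated gene, before a later transcript start, so the bases ahead of the first start of Ccr2 are not shown and were not searched.
Ccr2 (chr9:124101933-124102182, plus strand): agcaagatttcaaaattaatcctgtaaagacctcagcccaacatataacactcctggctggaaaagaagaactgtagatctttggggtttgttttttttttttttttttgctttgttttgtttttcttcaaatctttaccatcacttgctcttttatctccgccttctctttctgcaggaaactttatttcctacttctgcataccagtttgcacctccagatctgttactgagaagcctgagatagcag
Cx3cr1 (chr9:120068297-120068546, minus strand): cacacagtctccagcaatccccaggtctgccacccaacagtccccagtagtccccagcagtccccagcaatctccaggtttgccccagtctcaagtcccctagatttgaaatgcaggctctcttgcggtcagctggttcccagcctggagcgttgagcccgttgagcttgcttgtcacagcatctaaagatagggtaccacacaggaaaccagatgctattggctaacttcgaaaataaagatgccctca
Ccr6 (chr17:8235793-8236042, plus strand): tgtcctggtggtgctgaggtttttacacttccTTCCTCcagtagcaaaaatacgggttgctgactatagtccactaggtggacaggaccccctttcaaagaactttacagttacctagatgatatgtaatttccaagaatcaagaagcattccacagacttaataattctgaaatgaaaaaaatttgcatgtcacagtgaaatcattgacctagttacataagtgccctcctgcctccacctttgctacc
The letters are absent from the windows of Ccr2 and Cx3cr1 and occur once, on the reverse strand, in that of Ccr6. A second Ccr6 window and those of Cxcr4 and Gpr183 lacked them, and the window of Cxcr3 held them once. Of 32851 promoter windows of this length 23.3% held them on either strand.

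Levels are given as TPM, transcripts per 1 M transcripts, which are scaled per length and so allow genes to be compared within a library. Trim33, the deleted gene, checked the labels first. Relative to WT, 61.2% of the Trim33 level remained on average in cKO pDCs, 46.3% in cDC1s and 41.3% in cDC2s, and no cKO library overlapped the WT libraries of its subset. The log2 fold changes (cKO over WT) were −0.68 (SE 0.13, adjusted p 0.0301) in pDCs, −1.02 (SE 0.13, adjusted p 0.000349) in cDC1s and −1.17 (SE 0.11, adjusted p 0.000126) in cDC2s. Fold changes, standard errors (SE) and adjusted p values came from limma on log2(TPM + 1), a scale that understates the change of low genes. The call took an adjusted p of 0.01 or less together with a log2 change of 0.5 or more in size, so Trim33 missed the call in pDCs, where a fit that blocked on the replicate number gave an adjusted p of 0.00361. Depth was estimated at 18.06 to 19.94 M reads per library, and replicates correlated at Pearson r of 0.981 to 0.994 across genes. With so few libraries per group, genes often separate by genotype without overlap even where nothing changed, most of all in cDC1s. The share of all genes that did so was not counted, so such separation is given below as a description only. In these bulk samples a change in the share of cells that express a gene and a change in its RNA per cell cannot be told apart.

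All 8 receptor genes were listed in both tables, and 6 reached the mean of 1 TPM needed for a test in each. Cxcr5 and S1pr1 did not. In pDCs 1 of the 6 tested was called (Ccr6, lower), against 1.05% of all 11299 genes tested (0.239% lower). In cDC1s 2 of 6 were called (Ccr2 and Cx3cr1, higher), against 22.4% of 11411 genes (15.8% higher). In cDC2s 3 of 6 were called (Ccr2 and Cx3cr1 higher, Cxcr3 lower), against 7.15% (3.59% higher and 3.56% lower). The median log2 fold change over the 6 was −0.10 in pDCs, 0.63 in cDC1s and −0.15 in cDC2s, beside −0.05, 0.17 and −0.03 over all genes tested.

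**Figure D1:**
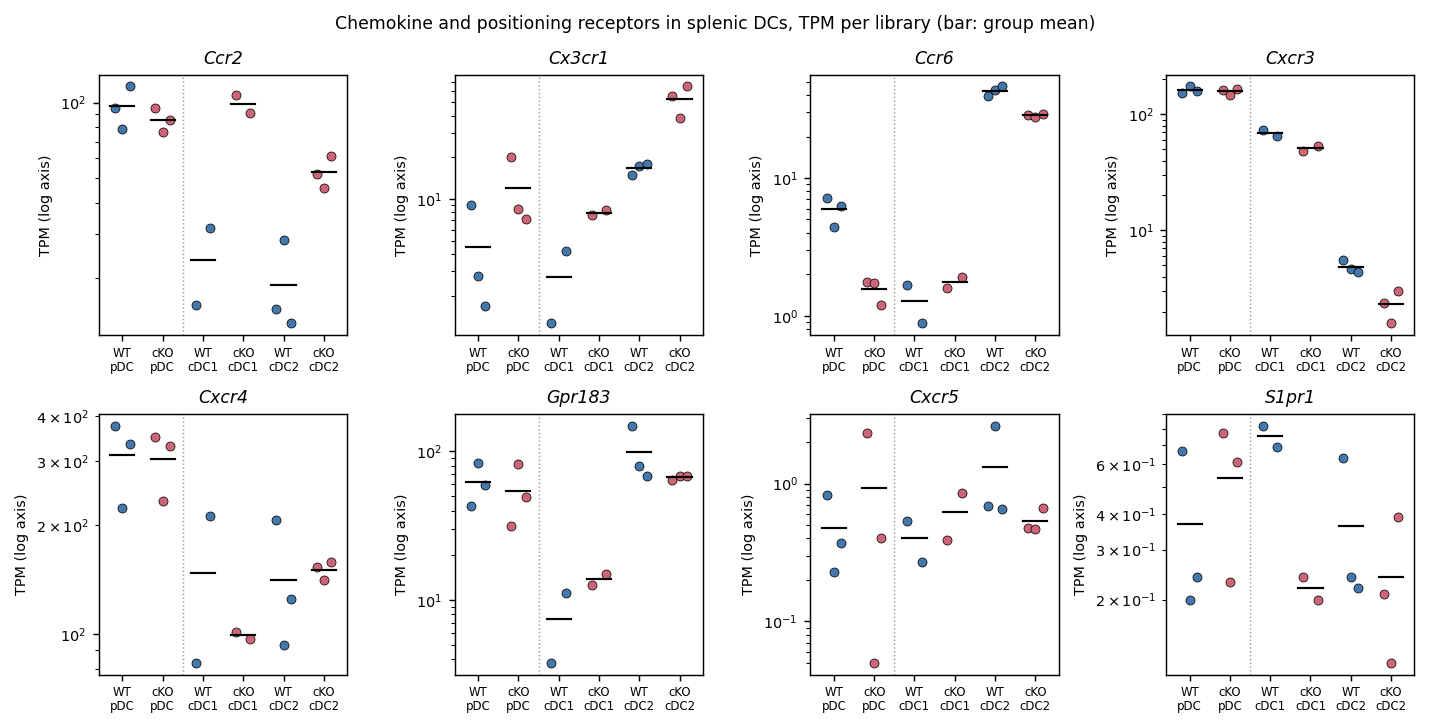
TPM of the 8 receptor genes in each of the 16 libraries, on a log axis, by subset and genotype (points: libraries, blue WT and red cKO; bars: group means). The pDC values stand left of the dotted line because pDCs and cDCs were normalized in separate tables. Ccr2 and Cx3cr1 were higher in every cKO cDC library than in every WT library of its subset, and Ccr6 was lower in every cKO pDC library. The share of all genes that separated in this way was not counted.

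The median of 0.17 over all genes in cDC1s depended on the scaling of the values. Median-of-ratios scaling moved it to 0.02, and 50.0% of the cDC1 calls were then higher in place of 70.7% (52.9% with quantile normalization). The share of higher calls in cDC2s was 50.2% as deposited, 60.5% with median-of-ratios scaling and 61.0% with FPKM. With median-of-ratios scaling the log2 fold changes in cDC1s were 1.93 for Ccr2 (adjusted p 0.00306) and 1.26 for Cx3cr1 (adjusted p 0.0168), so Cx3cr1 lost its call.

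Ccr2 (chr9:124101918-124109140, GRCm38.p6) was the receptor with the largest change, and it was called in both cDC subsets. In cDC1s it stood at 15.7 and 31.6 TPM in WT libraries and at 108 and 90.6 TPM in cKO libraries. Both cKO libraries lay above both WT libraries, and the mean rose 4.19-fold, from 23.6 ± 11.2 to 99.1 ± 12 TPM (SD, n = 2 each). The log2 fold change was 2.10 (SE 0.36, adjusted p 0.00153). It was called in 8 of 10 fits that each left out 1 cDC library, and without WT cDC1 library 1 or cKO cDC1 library 1 the adjusted p was 0.0134 and 0.0184.

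In cDC2s Ccr2 stood at 15.2, 28.3 and 13.2 TPM in WT libraries and at 51.9, 45.7 and 61.2 TPM in cKO libraries. The groups did not overlap here either, and the mean rose 2.8-fold, from 18.9 ± 8.19 to 52.9 ± 7.77 TPM (SD, n = 3 each). The log2 fold change was 1.5 (SE 0.29, adjusted p 0.00682). This call was kept in 3 of 10 fits that left out 1 library (without WT cDC1 library 1, WT cDC1 library 2 or WT cDC2 library 2), and over all 10 the log2 fold change ran from 1.30 to 1.82 and the adjusted p reached at most 0.034. The limma fit that blocked on the replicate number also lost the call (adjusted p 0.0123).

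In pDCs Ccr2 was abundant in both genotypes and was not called, and no test was made of pDCs against cDCs, whose tables were normalized apart. It stood at 95.0, 78.8 and 116 TPM in WT libraries and at 95.1, 76.2 and 85.2 TPM in cKO libraries, and the groups overlapped. The log2 fold change was −0.16 (SE 0.14, adjusted p 0.558). Within cDCs the order of means was cKO cDC1s, cKO cDC2s, WT cDC1s and WT cDC2s, and the last 2 overlapped. The summed level of genes that mark pDCs rose with Ccr2 in cDCs, but not each of these genes did. The 8 pDC markers summed to 148 to 163 TPM in WT and 266 TPM in both cKO cDC1 libraries, and to 150 to 181 TPM in WT and 208 to 247 TPM in cKO cDC2s, against 17200 to 19100 TPM in pDCs. Most of the cDC1 sum was Bst2, at 129 and 113 TPM in WT and 199 and 200 TPM in cKO libraries. Cox6a2 was called higher in pDCs, cDC1s and cDC2s. It stood at 1.75 to 3.62 TPM in WT and 30.9 to 41.9 TPM in cKO cDC2s. Within pDCs it stood at 1144 to 1261 TPM in WT and 2755 to 3740 TPM in cKO libraries. Bst2 stood at 94.5 to 122 TPM in WT and 128 to 157 TPM in cKO cDC2s. Siglech overlapped between genotypes there, at 5.16 to 7.11 TPM in WT and 3.97 to 9.6 TPM in cKO cDC2s. Pacsin1 was called lower in cDC1s. The 7 tested had a median log2 fold change of 0.82 in cDC1s and −0.02 in cDC2s. Over all genes tested the median was 0.17 and −0.03. The part of the pDC markers in the Ccr2 values was not tested.

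Cx3cr1 (chr9:120048683-120068296) rose in the same cDC groups from lower levels. In cDC2s it stood at 14.8, 17.4 and 17.9 TPM in WT libraries and at 55.3, 38.2 and 65.0 TPM in cKO libraries. Every cKO library lay above every WT library, and the mean rose 3.16-fold, from 16.7 ± 1.65 to 52.8 ± 13.6 TPM (SD, n = 3 each). The log2 fold change was 1.58 (SE 0.28, adjusted p 0.00434). The call was lost in 4 of 10 fits that left out 1 library, those without WT cDC2 library 1 or 2 or cKO cDC2 library 1 or 3, with an adjusted p of up to 0.0233.

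In cDC1s Cx3cr1 stood at 1.26 and 4.18 TPM in WT libraries and at 7.62 and 8.32 TPM in cKO libraries. The mean rose 2.93-fold, from 2.72 ± 2.06 to 7.97 ± 0.495 TPM (SD, n = 2 each), and limma gave a log2 fold change of 1.39 (adjusted p 0.00929, SE 0.34). The call was kept in 3 of 19 alternative fits. Among those that lost it was the limma fit that blocked on the replicate number (adjusted p 0.0129). Without WT cDC1 library 1, the lower of the pair, the log2 fold change was 0.79 and the adjusted p 0.055, and without WT cDC1 library 2 they were 1.99 and 0.00103.

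In pDCs Cx3cr1 stood at 8.96, 2.78 and 1.68 TPM in WT libraries and at 20.1, 8.49 and 7.13 TPM in cKO libraries, and the groups overlapped, with both libraries numbered 1 the highest of their genotype. Each cKO library lay above the WT library of its own number, although the titles state no pairing. The log2 fold change was 1.34 (SE 0.52, adjusted p 0.195), not called, while the fit with the replicate block gave an SE of 0.12 and an adjusted p of 0.000836. That fit called 2.96% of all genes. The B cell gene Cd79a was also highest in library 1 of each genotype, at 13.7, 2.95 and 3.97 TPM in WT and 38.3, 5.61 and 7.54 TPM in cKO pDCs. Its libraries 2 and 3 stood in the opposite order to those of Cx3cr1 in both genotypes. The means of several monocyte and macrophage genes were higher in cKO pDCs as well. Of the 12 markers of these cells 8 were tested in pDCs, with a median log2 fold change of 0.47 beside −0.05 over all genes, and by limma 0 were called (5 at an unadjusted p under 0.05). Csf1r stood at 13.2, 16.0 and 11.6 TPM in WT and 29.3, 20.0 and 24.3 TPM in cKO pDCs, and C1qa at 13.97, 24.5 and 17.6 TPM in WT and 34.0, 22.8 and 48.7 TPM in cKO pDCs. The list summed to 4830 to 5510 TPM in WT and 5710 to 5810 TPM in cKO pDCs, most of it Ly6c2, which pDCs themselves express. The part of B cells, monocytes and macrophages in the Cx3cr1 values was not tested.

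Some monocyte genes rose with Ccr2 and Cx3cr1 in cDCs, while others did not. Of 12 monocyte and macrophage markers, 10 were tested in cDCs and 2 were called higher in each subset, with 0 lower, beside 15.8% of all genes called higher in cDC1s and 3.59% in cDC2s. In cDC2s these were Fcgr1, the high-affinity IgG receptor (log2 fold change 1.15, SE 0.23, adjusted p 0.00789), and Csf1r, the receptor of CSF1 (0.94, SE 0.16, adjusted p 0.00326). Fcgr1 stood at 2.45, 4.39 and 3.02 TPM in WT cDC2s and at 10.2, 5.79 and 9.68 TPM in cKO cDC2s. In cDC1s they were Ly6c2 (1.40, SE 0.29, adjusted p 0.00386) and Csf1r (0.85, SE 0.19, adjusted p 0.00636), while Fcgr1 was at 0.19 to 0.62 TPM in all 4 libraries. In cDC2s the call was kept in 8 of 20 alternatives for Fcgr1 and in 15 for Csf1r. In cDC1s it was kept in 16 of 20 for Ly6c2 and in 11 for Csf1r. The 12 markers summed to 61.8 to 90.5 TPM in WT and 103 to 108 TPM in cKO cDC1s, and to 502 to 672 TPM in WT and 618 to 881 TPM in cKO cDC2s. None was at 0 in every library of a group. The 10 tested had a median log2 fold change of −0.34 in cDC1s and 0.25 in cDC2s. Over all genes tested the median was 0.17 and −0.03. The part of the 12 markers in the changes of Ccr2 and Cx3cr1 was not tested.

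Ccr6 (chr17:8236041-8258519) was the only receptor of the 8 called in pDCs. It stood at 7.19, 4.40 and 6.29 TPM in WT libraries and at 1.76, 1.73 and 1.19 TPM in cKO libraries. All cKO libraries lay below all WT libraries, and the mean in cKO was 26.2% of that in WT (5.96 ± 1.42 against 1.56 ± 0.321 TPM, SD, n = 3 each). The log2 fold change was −1.43 (SE 0.19, adjusted p 0.00806). The call was kept in 1 of 6 fits that left out a pDC library (without WT library 2), and the adjusted p reached 0.0507 without WT library 3. For Ccr6 3 reads corresponded to at most 0.21 TPM, so each of these values lies above that level.

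cDC2s were the main carriers of Ccr6 among cDCs. It stood at 39.5, 43.7 and 46.3 TPM in WT and at 28.7, 27.8 and 29.1 TPM in cKO cDC2s. The groups did not overlap, and the cKO mean was 66.2% of the WT mean, but the log2 fold change of −0.58 (SE 0.13, adjusted p 0.0145) missed the call. In cDC1s Ccr6 was low, at 1.66 and 0.88 TPM in WT and 1.60 and 1.90 TPM in cKO libraries, with overlapping groups and a log2 fold change of 0.30 (adjusted p 0.174, SE 0.16). The cDC1 effect minus the cDC2 effect was 0.87 (SE 0.21, adjusted p 0.0295), which was not called.

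Cxcr3 (chrX:101731535-101734147) fell in cDC2s, where it was least abundant. It stood at 5.52, 4.67 and 4.42 TPM in WT and at 2.37, 1.58 and 3.03 TPM in cKO cDC2s, with no overlap. The cKO mean was 47.8% of the WT mean (2.33 ± 0.726 against 4.87 ± 0.577 TPM, SD, n = 3 each), and the log2 fold change was −0.84 (SE 0.16, adjusted p 0.00602). The call was kept in 4 of 10 fits that left out 1 library, those without WT cDC1 library 1, WT cDC1 library 2, WT cDC2 library 3 or cKO cDC2 library 3, and the adjusted p rose to at most 0.021 in the others. The limma fit that blocked on the replicate number also lost the call (adjusted p 0.0116). In cDC1s, where Cxcr3 stood at 73.9 and 64.5 TPM in WT and 48.8 and 53.6 TPM in cKO libraries, the groups did not overlap but the log2 fold change of −0.43 (SE 0.19, adjusted p 0.106) was not called. In pDCs it stood at 154, 174 and 159 TPM in WT and 163, 146 and 166 TPM in cKO libraries, and the log2 fold change was −0.04 (SE 0.07, adjusted p 0.814).

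**Figure D2:**
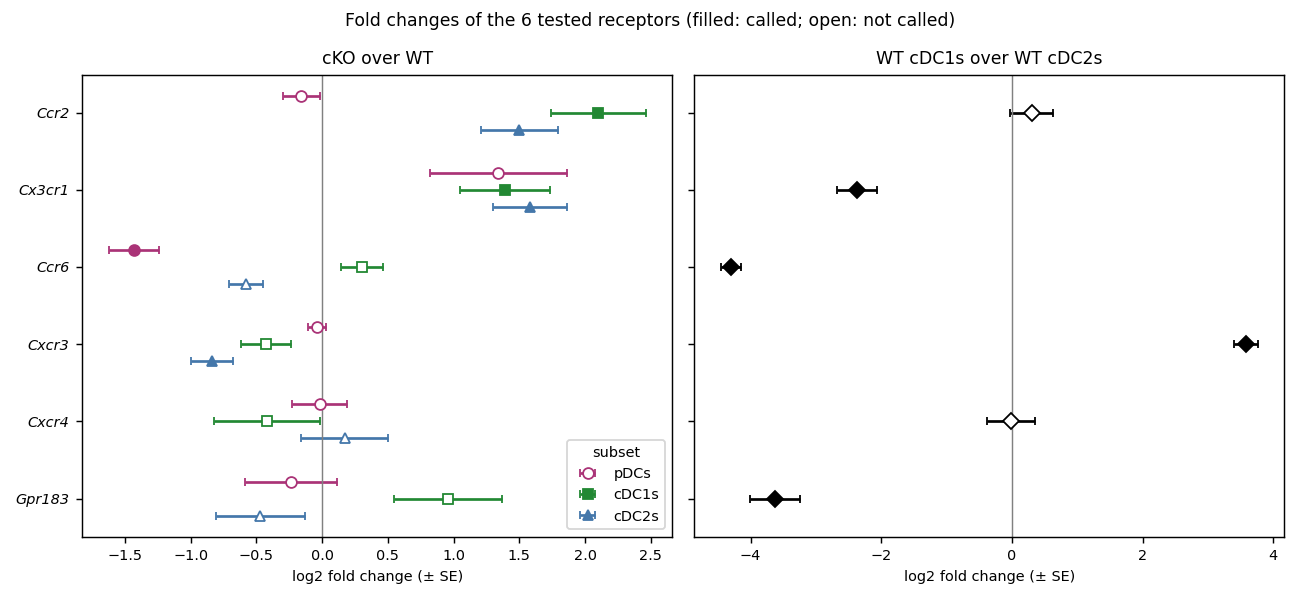
Log2 fold changes (points) and SE (bars) of the 6 tested receptors. The left panel gives cKO over WT in each subset and the right panel WT cDC1s over WT cDC2s, with filled points where a gene was called. On the left the filled points are Ccr2 and Cx3cr1 in both cDC subsets (1.39 to 2.10), Ccr6 in pDCs (−1.43) and Cxcr3 in cDC2s (−0.84), and on the right Cx3cr1, Ccr6, Cxcr3 and Gpr183.

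Gpr183 (chr14:121952331-121965193) was a cDC2 and pDC transcript, and none of its cKO differences was called. In cDC1s it stood at 3.79 and 11.1 TPM in WT and at 12.6 and 15 TPM in cKO libraries. Both cKO libraries lay above both WT libraries, and the log2 fold change was 0.96 (SE 0.41, adjusted p 0.0908). The value rested on the spread of the WT pair, since without WT cDC1 library 2 it was 1.62 (adjusted p 0.01, called) and without WT cDC1 library 1 it was 0.29 (adjusted p 0.589). In cDC2s Gpr183 stood at 149, 79.2 and 68.4 TPM in WT and at 64.4, 67.8 and 68.1 TPM in cKO libraries, where WT library 1 stood above the other 5, and the log2 fold change was −0.47 (SE 0.34, adjusted p 0.35). In pDCs it stood at 42.8, 83.8 and 59.4 TPM in WT and at 31.7, 81.8 and 49.7 TPM in cKO libraries, which overlapped, with a log2 fold change of −0.24 (adjusted p 0.737, SE 0.35).

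Cxcr4 (chr1:128588199-128592299) was the most abundant of the 8 receptors in pDCs and in 9 of the 10 cDC libraries, and it did not change detectably between genotypes. It stood at 377, 223 and 335 TPM in WT pDCs and at 350.0, 233 and 330.3 TPM in cKO pDCs (log2 fold change −0.02, SE 0.21, adjusted p 0.969). In cDC1s the WT pair lay far apart, at 83.2 and 211 TPM, around cKO values of 101 and 96.8 TPM (−0.42, SE 0.40, adjusted p 0.442). In cDC2s the values were 206, 92.9 and 125 TPM in WT and 153, 141 and 158 TPM in cKO libraries (0.17, SE 0.33, adjusted p 0.758). The genotypes overlapped in each subset.

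For both Gpr183 and Cxcr4, WT cDC1 library 2 lay above library 1 and WT cDC2 library 1 above the other 2 WT cDC2 libraries. With 2 WT cDC1 libraries it cannot be said which of the pair is unusual. Cd69 and Klf2, named here after their values were seen, had the same order. Cd69, which removes S1PR1 from the cell surface, stood at 2.99 against 19.4 TPM in the WT cDC1 libraries and at 100, 9.74 and 10.1 TPM in the WT cDC2 libraries. Klf2, a transcription factor that induces S1pr1, stood at 204 and 572 TPM and at 784, 224 and 326 TPM. The fit was repeated without WT cDC1 library 2 and WT cDC2 library 1, a choice made after seeing the data that leaves 1 WT cDC1 library, assumed to vary like the other groups. Ccr2 and Cx3cr1 in cDC1s are not read from this fit. WT cDC1 library 2 was also the higher of its pair for Ccr2 (31.6 against 15.7 TPM) and Cx3cr1 (4.18 against 1.26 TPM). Leaving it out can only enlarge their rises. In cDC2s Cx3cr1 was called (adjusted p 0.00315), while Ccr2 (adjusted p 0.014) and Cxcr3 (adjusted p 0.0266) lost their calls and Ccr6 (adjusted p 0.007) gained one. Gpr183 is not read from this fit, since its own values helped to choose the libraries. With all libraries its cDC1 effect minus its cDC2 effect was 1.43 (SE 0.53, adjusted p 0.103).

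**Figure D3:**
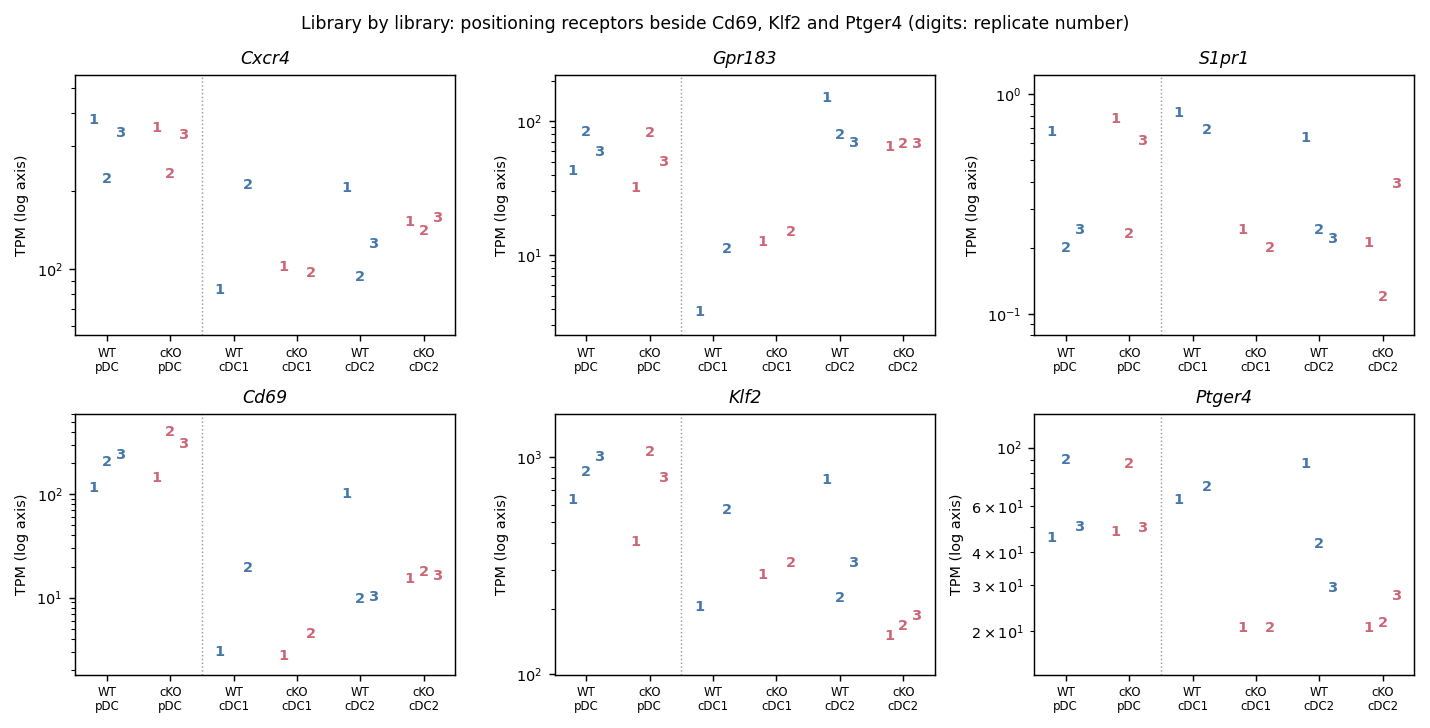
TPM of Cxcr4, Gpr183 and S1pr1 beside Cd69, Klf2 and Ptger4 in each library, on log axes (each digit is 1 library and gives its replicate number, blue WT and red cKO). WT cDC1 library 2 and WT cDC2 library 1 lie above the other WT libraries of their subset for Cxcr4, Gpr183, Cd69 and Klf2, while the cKO cDC libraries of these genes lie close together.

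Cxcr5 (chr9:44511787-44526444) and S1pr1 (chr3:115710433-115715055) averaged under 1 TPM over the libraries of each fit and were not tested. Cxcr5 stood at 0.83, 0.23 and 0.37 TPM in WT and 2.34, 0.05 and 0.40 TPM in cKO pDCs, at 0.54 and 0.27 TPM in WT and 0.39 and 0.86 TPM in cKO cDC1s, and at 0.69, 2.64 and 0.65 TPM in WT and 0.48, 0.47 and 0.67 TPM in cKO cDC2s. Genotypes overlapped in all 3 subsets, and 3 reads on this gene corresponded to 0.099 to 0.128 TPM, so cKO pDC library 2 lay under that level. WT cDC2 library 2 held an estimated 69.7 reads and cKO pDC library 1 56.7. The highest pDC value, in cKO library 1, was in the library with the highest Cd79a, and the part of B cells, which carry CXCR5, was not tested.

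S1pr1 stood at 0.67, 0.20 and 0.24 TPM in WT and 0.77, 0.23 and 0.61 TPM in cKO pDCs, and at 0.63, 0.24 and 0.22 TPM in WT and 0.21, 0.12 and 0.39 TPM in cKO cDC2s. In cDC1s both WT libraries, at 0.82 and 0.69 TPM, lay above both cKO libraries, at 0.24 and 0.20 TPM. These values rest on an estimated 3.9 to 25.0 reads per library, and a fit without the filter on low genes gave an adjusted p of 0.0322 in cDC1s, not called.

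The subsets themselves differed in most of these receptors. Of the 6 receptors tested between WT cDC1s and WT cDC2s, 4 were called, against 31.7% of 11411 genes (10.9% higher and 20.8% lower in cDC1s). Of these calls 34.4% were higher in cDC1s as deposited and 51.4% with median-of-ratios scaling. All 4 kept the call in each of 18 alternative fits. Ccr6 was 34.0-fold higher in WT cDC2s by mean TPM (log2 fold change, cDC1s over cDC2s, −4.30, SE 0.15, adjusted p 1.34e-08). Gpr183 was 13.3-fold higher in cDC2s (−3.63, SE 0.38, adjusted p 2.40e-05) and Cx3cr1 6.14-fold higher (−2.37, SE 0.31, adjusted p 0.000132). Cxcr3 was 14.2-fold higher in cDC1s (3.58, SE 0.18, adjusted p 1.11e-07). Ccr2 (0.30, SE 0.33, adjusted p 0.469) and Cxcr4 (−0.01, SE 0.37, adjusted p 0.982) were not called.

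In cKO mice the same ratios of means between the cDC subsets were 16.3-fold for Ccr6, 4.84-fold for Gpr183 and 6.63-fold for Cx3cr1, each higher in cDC2s, and 22-fold for Cxcr3, higher in cDC1s. Whether the effect of genotype differed between the cDC subsets was tested as the cDC1 effect minus the cDC2 effect. By limma 0 of the 6 receptors were called, against 2.56% of all genes (47.3% of these higher, and 26.2% with median-of-ratios scaling), and 2 had an unadjusted p under 0.05, Ccr6 and Gpr183. For Ccr2 the difference was 0.59 (SE 0.46, adjusted p 0.398) and for Cx3cr1 −0.19 (SE 0.44, adjusted p 0.787), and errors of this size leave unequal rises possible.

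Ccr2 lies in a cluster of chemokine receptor genes on chromosome 9. Of the 6 other receptor genes within 334.7 kb on its lower-coordinate side 4 were tested, of which 1 was called in cDC1s, where 22.4% of all genes were called, and by limma 0 in cDC2s or pDCs (at an unadjusted p under 0.05, 1 in cDC2s and 2 in pDCs). Ccr9, a receptor of gut- and thymus-homing cells at the far end of the cluster, fell in cDC1s from 18.2 ± 0.799 to 8.84 ± 1.08 TPM (SD, n = 2 per group), a log2 ratio of −0.97 (adjusted p 0.000787, SE 0.15). Its effect differed between cDC1s and cDC2s (−1.10, SE 0.19, adjusted p 0.00727), and this call was kept in 6 of 19 alternatives. Ccr1, a receptor of inflammatory chemokines, was not called in cDC2s, where its log2 ratio was 0.85 (adjusted p 0.0164, SE 0.20), nor in cDC1s, where it was 0.76 (adjusted p 0.0331, SE 0.25). Xcr1, the receptor of XCL1 that defines cDC1s, stood at 305 ± 2.88 TPM in WT and 213 ± 15.8 TPM in cKO cDC1s (SD, n = 2 each) and was not called. How short reads that Ccr2 shares with related receptor genes were divided is not known from these values.

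**Figure D4:**
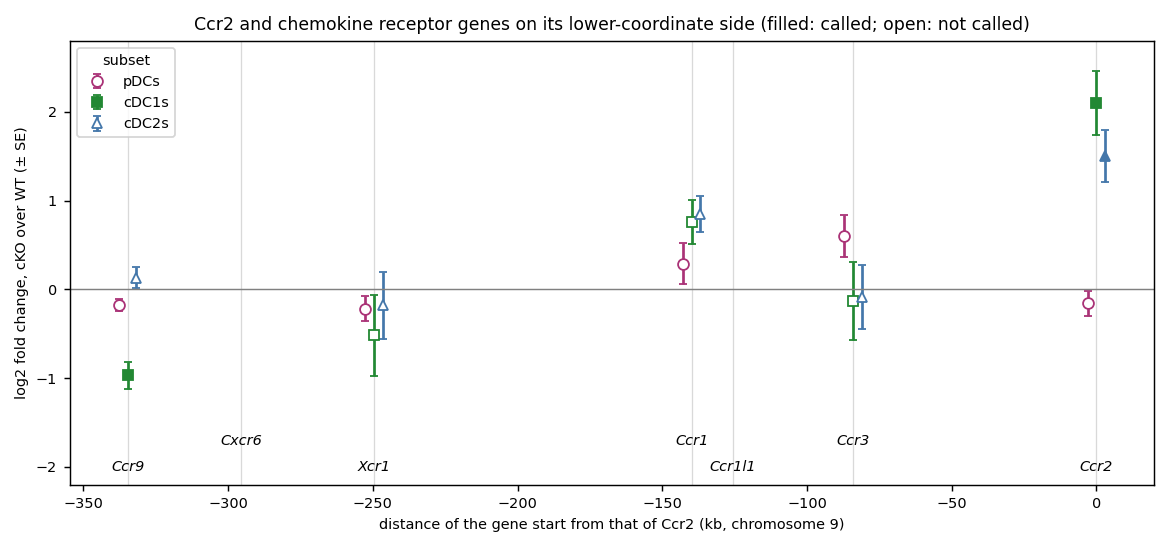
Log2 fold changes (cKO over WT, points) and SE (bars) of Ccr2 and the chemokine receptor genes on its lower-coordinate side, by distance of the gene start from that of Ccr2 in kb, with filled points where a gene was called. Genes named without points did not reach the level needed for a test. Ccr2 stands at 2.10 in cDC1s and 1.5 in cDC2s, Ccr9 at −0.97 in cDC1s, and the other points are open.

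Among 18 other chemokine receptors 9 were tested in cDCs and 8 in pDCs, with 3 called lower in cDC1s, 1 lower in cDC2s and 0 in pDCs by limma (3 at an unadjusted p under 0.05). Over all genes 22.4%, 7.15% and 1.05% were called in these subsets. Ccr7, which takes mature DCs to T cell zones, fell in cDC1s (log2 fold change −4.37, SE 0.41, adjusted p 8.25e-05) and in cDC2s (−1.91, SE 0.34, adjusted p 0.0044). Ccrl2, a receptor that binds chemerin without signalling, fell in cDC1s from 44.1 ± 26.7 to 5.48 ± 0.41 TPM (SD, n = 2 per group), a log2 ratio of −2.66 (adjusted p 0.00389, SE 0.55). Between WT subsets Xcr1 (6.13) and Ccr9 (2.45) were higher in cDC1s and Ackr1 (−2.23), Ccr3 (−2.18) and Ccrl2 (−1.96) higher in cDC2s. Mature DC genes moved with Ccr7: of 7 markers tested in cDCs 6 were called lower in cDC1s and 0 in cDC2s, and their sum was 610 to 1310 TPM in WT against 119 to 169 TPM in cKO cDC1s. In cDC2s it was 727 to 1070 TPM in WT and 519 to 650 TPM in cKO libraries. Their part in the receptor changes was not tested.

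Of the 4 other S1P receptors 2 were tested, and by limma 0 were called between genotypes in any subset (at an unadjusted p under 0.05, 1 in pDCs, 2 in cDC1s and 1 in cDC2s). S1pr4, the S1P receptor of lymphoid and DC lineages, was the more abundant of the pair in pDCs, with WT pDCs at 57.6 ± 2.14 TPM and cKO pDCs at 78.7 ± 6.51 TPM (SD, n = 3 per group), a log2 ratio of 0.44 (adjusted p 0.0193, SE 0.07). In cKO cDCs both were at like levels, with S1pr2 at 8.63 ± 0.403 and S1pr4 at 8.44 ± 0.099 TPM in cDC1s (SD, n = 2) and at 4.30 ± 0.38 and 4.40 ± 0.57 TPM in cDC2s (SD, n = 3). S1pr2, which holds cells back from S1P, was higher in WT cDC1s than in WT cDC2s (0.78, SE 0.19, adjusted p 0.00655).

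Of 10 genes that make or degrade oxysterols and S1P, 5 were tested in cDCs and 7 in pDCs, and by limma 0 were called between genotypes (at an unadjusted p under 0.05, 1 in pDCs, 3 in cDC1s and 2 in cDC2s). Hsd3b7, which degrades the GPR183 ligand, was higher in WT cDC1s, at 89.2 ± 21.5 TPM (SD, n = 2), than in WT cDC2s, at 15.7 ± 2.90 TPM (SD, n = 3), which limma called (2.42 on the log2 scale, SE 0.19, adjusted p 3.22e-06). It ran opposite to Gpr183 between these subsets.

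Most ligands of the receptors lay under the level needed for a test, with 4 of 10 tested in cDCs and 1 in pDCs. The CXCR3 ligand gene Cxcl10 rose in cDC2s from 29.0 ± 3.27 to 50.2 ± 7.23 TPM (SD, n = 3 per group), a log2 ratio of 0.77 (adjusted p 0.00666, SE 0.15), the subset in which Cxcr3 fell. This call was kept in 9 of 20 alternatives. Cxcl9, the other CXCR3 ligand, was higher in WT cDC1s than in WT cDC2s (3.77, SE 0.21, adjusted p 2.94e-07), as was Cxcr3 itself, and Cx3cl1 was higher there too (1.2, SE 0.22, adjusted p 0.00136), opposite to Cx3cr1. By limma 0 ligands were called in cDC1s (2 at an unadjusted p under 0.05) or in pDCs (0).

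Of 30 genes that carry or switch off the signals of these receptors 28 were tested. In cDC1s 2 were called higher and 4 lower, in cDC2s 0 and 2, and in pDCs 1 and 0. Over all genes 22.4% were called in cDC1s, 7.15% in cDC2s and 1.05% in pDCs, so the share of these genes called in either cDC subset was near the background. Regulators of G protein signalling (RGS proteins) shorten the response to a chemokine. Rgs1 fell in cDC1s from 742 ± 389 to 84.1 ± 12.9 TPM (SD, n = 2 per group), a log2 ratio of −3.03 (adjusted p 0.000138, SE 0.32), followed by Rgs2 (−1.21) and Rgs3 (−0.68), while Rgs18 (1.17) and Rgs14 (0.97) rose. Rgs3 (−0.56) and the G protein gene Gnaq (−0.51) fell in cDC2s. Rgs18 rose in cDC1s but stood at −0.26 (adjusted p 0.201) in cDC2s, and this difference was called (1.44, SE 0.21, adjusted p 0.00367), as was that of Rgs10 (−0.73, adjusted p 0.00606). The call was kept in 12 of 19 alternatives for Rgs18 and in 7 of 19 for Rgs10. In pDCs the beta-arrestin gene Arrb2, which ends receptor signalling, rose from 124 ± 4.11 to 196 ± 6.82 TPM (SD, n = 3 per group), a log2 ratio of 0.65 (adjusted p 0.00157, SE 0.05). Between WT subsets 3 of the 28 were higher in cDC1s and 5 in cDC2s, beside 31.7% of all genes called, led by Rgs18 (−1.84), Grk3 (−1.41), Rac2 (−1.32), Rgs10 (1.29) and Rhoh (−1.28).

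Of 18 other migration receptors 15 were tested in cDCs and 12 in pDCs. In cDC1s 1 was called higher and 5 lower, in cDC2s 2 higher and 1 lower, and in pDCs 0 by limma (4 at an unadjusted p under 0.05), beside 22.4%, 7.15% and 1.05% of all genes called. The leukotriene B4 receptor gene Ltb4r1 rose in cDC1s (log2 fold change 1.31, SE 0.31, adjusted p 0.00863) and in cDC2s, there from 7.41 ± 2.10 to 20.4 ± 5.30 TPM (SD, n = 3 per group), a log2 ratio of 1.35 (adjusted p 0.0061, SE 0.26). P2ry13, a receptor of ADP, rose in cDC2s (0.94, SE 0.20, adjusted p 0.00953), and Gpr34 fell in both cDC1s (−1.07) and cDC2s (−0.81). Ptafr, the receptor of platelet-activating factor, fell in cDC1s from 27.8 ± 6.69 to 5.97 ± 0.24 TPM (SD, n = 2 per group), a log2 ratio of −2.03 (adjusted p 6.28e-05, SE 0.18), followed by Ptger4 (−1.66), a receptor of prostaglandin E2, and Gpr132 (−1.10). In cDC2s Ptafr stood at 32.2 ± 3.96 TPM in WT and 42.7 ± 5.80 TPM in cKO libraries (SD, n = 3 each), and the difference between the subsets was called (−2.42, SE 0.24, adjusted p 0.00043) and kept in all 19 alternatives. Between WT subsets P2ry14 (6.15), Ptger2 (2.74) and Lpar6 (2.19) led the 3 higher in cDC1s, and P2ry13 (−2.02) and Ltb4r1 (−2.0) the 5 higher in cDC2s. Some calls of these lists were kept in few alternatives, among them Gnaq in cDC2s (3 of 20), P2ry13 in cDC2s (4 of 20), Rgs3 in cDC2s (7 of 20), Ltb4r1 in cDC1s (9 of 20), and Ccrl2 (6 of 19) and S1pr2 (9 of 19) between WT subsets.

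The genes whose levels most resembled each receptor over the 10 cDC libraries, among 9518 genes, were found by Pearson correlation of log2(TPM + 1). Because these libraries fall into 4 groups, the correlations mostly restate group differences. For Ccr2 they were Nudt1 (r = 0.978), Lgals1 (0.978) and Tspan4 (0.961), and for Cx3cr1 Hpse (0.993), Wls (0.986) and Ogg1 (0.985). For Ccr6 they were Cyp4f16 (0.998), Dscam (0.998) and Lgals8 (0.997), and for Cxcr3 Lrrc3 (0.997), Lrrc1 (0.996) and Fndc7 (0.995). Gpr183 was closest to Inpp5f (0.987), Ripk2 (0.985) and Tfrc (0.981). Cxcr4 had no such close match, with Fosl2 (0.898), Itprip (0.866) and Enc1 (0.854) nearest.

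The sorted subsets carried their defining markers. Beside the pDC markers, the 8 cDC1 markers summed to 3630 to 3800 TPM in WT and 3010 to 3050 TPM in cKO cDC1s, against 197 to 271 TPM in cDC2s. Much of the cDC1 sum was Irf8, at 1754 and 1720 TPM in WT and 1928 and 1855 TPM in cKO cDC1s. The 8 cDC2 markers summed to 1370 to 1560 TPM in cDC2s against 221 to 275 TPM in cDC1s. In pDCs the cDC1 list summed to 3750 to 4330 TPM and the cDC2 list to 1110 to 1360 TPM. Most of the cDC1 list in pDCs was Irf8, at 3410 to 3933 TPM. Of the other cDC1 markers there, Clec9a stood at 171 to 231 TPM and Xcr1 at 1.63 to 2.64 TPM. Between genotypes the pDC list had 1 call in pDCs (higher), 4 in cDC1s (3 higher) and 1 in cDC2s (higher). The cDC1 list had 0 in pDCs, 3 in cDC1s (Itgae, Cadm1 and Clec9a, all lower) and 0 in cDC2s. These cDC1 calls were kept in 20 of 20 alternatives for Itgae, in 15 for Cadm1 and in 8 for Clec9a. The cDC2 list had 1 in pDCs (higher), 2 in cDC1s (1 higher) and 4 in cDC2s (2 higher). Over all genes tested 1.05% were called in pDCs, 22.4% in cDC1s and 7.15% in cDC2s. The 7 B cell markers summed to 63.0 to 91.0 TPM in WT and 81.9 to 148 TPM in cKO pDCs and to 17.1 to 76.0 TPM in cDCs, with 1 called higher in pDCs, 1 lower in cDC1s and 2 lower in cDC2s. Of 7 T cell markers 6 were listed, at sums of 8.88 to 33.2 TPM, and the 6 NK cell markers summed to 0.53 to 5.74 TPM, with 0 called in both lists. The 7 neutrophil markers summed to 1.19 to 24.1 TPM in WT and 15.1 to 76.9 TPM in cKO libraries, with 0 called, and Ly6g was at 0 in all WT cDC1 and WT cDC2 libraries and Elane in both cKO cDC1 libraries. The mature DC list had 0 calls in pDCs by limma (1 at an unadjusted p under 0.05).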

How the data were processed

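RNA of sorted splenic DCs was sequenced as single-end reads of 50 bases, and 3, 3, 2, 2, 3 and 3 libraries were grouped by their titles. TPM and FPKM values per gene were deposited by the authors in tables of their own for pDCs and cDCs, and each library's TPM sums to 1 M over its table. Per the labels, HISAT2 2.0.4, Bowtie2 2.2.5, RSEM 1.2.12 and the mm10 build were used, and the release of the transcript reference is not given in the sources used here. Because estimated TPM values are not counts, the count model of the authors was not used, and nothing was tested across the 2 tables. By gene identifier, RefSeq (GRCm38.p6) gave names to 17079 of 17128 pDC genes and 17667 of 17721 cDC genes, and all 32 value columns belonged to a library. Promoters, also from RefSeq, were found for 6 of the 8 genes.

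Linear models were fitted with limma 3.58.1 (lmFit, eBayes with a trend) in R 4.3.3 to log2(TPM + 1) of genes whose TPM averaged 1 or more in the libraries of the fit, 6 for pDCs and 10 for cDCs (4 group means with a shared spread). The tests were two-sided and adjusted by Benjamini-Hochberg over all genes tested. Errors of levels are SDs over pools of mice. Depth was estimated from the spacing of low FPKM values (within 0.3876% on simulated libraries), and reads without molecular identifiers make these limits cover counting error only. On simulated data the pDC fit (11299 genes) recovered 80% of genes changed by 1 on the log2 scale and 99% of those changed by 2, with 1 false call. The cDC fit (11411 genes) recovered 73% and 98% in cDC1s with 0 false calls, and 86% and 99% in cDC2s with 1. The simulated errors were independent and normal, with the same spread of a gene in every group. They give no error rate for genes whose groups differ in spread, such as Cxcr4 (SD 90.5 TPM in WT and 3.21 TPM in cKO cDC1s).

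The titles number the pDC libraries but do not state that genotypes were paired. Deviations from the group means correlated at 0.31, 0.392 and 0.206 between libraries of the same number. All other pairs correlated negatively, which is partly forced, since deviations within a group cancel. These values cannot establish a pairing. For the 8 receptors and Trim33, fits with a replicate block are therefore given beside the main fit where they change a call. Alternatives were another pseudocount, no filter, FPKM, 2 other scalings, no trend, a looser threshold, the block, 2 groups alone and leaving out each library. The genes named were the 8 receptors, Trim33, at most 5 called genes per list and comparison, and the 3 most similar genes per receptor among those with a mean TPM of at least 5. Other listed genes named were chosen after their values were seen. The receptors and the lists were chosen with earlier results of these data known. Plots were drawn with matplotlib 3.10.9, pandas 2.3.3 and numpy 2.4.6 in Python 3.11.15. Values of 1 listed gene are not reported here, though it is included in the counts of its list.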

Additional observations from a re-analysis of the deposited data

How the results depend on the processing

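Of 552 alternative values of the 30 receptor fold changes, 465 kept their direction and their side of the threshold, 51 lost a call, 12 gained one and 24 changed sign. The 4 differences called between WT cDC1s and WT cDC2s stayed called in each alternative. In pDCs 1 receptor was called, but 0 without the filter or without the trend, 2 with the replicate block (Cx3cr1 being added), and 0 to 1 when a library was left out. In cDC1s 2 were called, and 1 with a pseudocount of 0.1, no filter, FPKM, median-of-ratios scaling, quantile normalization, no trend, the replicate block, the 2 cDC1 groups alone or the crossed pairing, and 0 to 3 when a library was left out. In cDC2s 3 were called, 0 without the filter, 1 with the replicate block, and 0 to 4 when a library was left out. For the difference between the cDC subsets 0 were called, 1 at an adjusted p of 0.05 without a fold limit (Ccr6), 1 without WT cDC1 library 2 and WT cDC2 library 1 (Gpr183, whose values helped to choose these libraries), and 0 when any single library was left out.

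Log2 fold changes changed sign for Cxcr3 in pDCs (0.00 with median-of-ratios scaling), Cxcr4 in pDCs (0.01 with FPKM and 0.02 with median-of-ratios scaling), and Cxcr4 between WT subsets (0.05 with FPKM, 0.18 with median-of-ratios scaling and 0.08 with quantile normalization). That of Cx3cr1 in the difference was 0.11 with a pseudocount of 0.1. Without WT cDC1 library 2 and WT cDC2 library 1 the values were 0.25 for Cxcr4 in cDC1s, 0.49 for Cx3cr1 in the difference and −0.29 for Ccr2 between WT subsets. Leaving out 1 library gave −0.07 to 0.02 for Cxcr3, −0.24 to 0.16 for Cxcr4 and −0.58 to 0.09 for Gpr183 in pDCs. It gave −1.08 to 0.25 for Cxcr4 in cDC1s, −0.09 to 0.48 in cDC2s, −1.25 to 0.08 in the difference and −0.68 to 0.66 between WT subsets. For Cx3cr1 in the difference it gave −0.78 to 0.41, and for Ccr2 between WT subsets −0.18 to 0.79. None of these was called with all libraries, and the cause was not tested.

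The replicate block raised the count of all genes called in pDCs from 119 to 335, and changed no receptor call there other than that of Cx3cr1. In cDC2s libraries of the same number correlated at −0.249, 0.253 and −0.165, so their values showed no pairing, and the block moved the count from 816 to 568. In cDC1s the same number gave −0.233, which with 2 libraries per group is forced to be opposite in sign to the other pairing. Pairing the libraries the other way, chosen after seeing the data, left 1 receptor called. Few reads fell on Cxcr5 and S1pr1, which were not tested, and 2 libraries per group limit every cDC1 value.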
